A study of Mus musculus with 12 samples.

Results

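The expression of 10 genes for heat shock proteins and their cochaperones was followed in the adrenal cortex of mice fed a low-fat diet (LFD), a high-fat diet (HFD), or a HFD with icosapent ethyl. The genes were taken by symbol from a fixed list and matched to their Ensembl identifiers. All 10 were found among the 49585 genes counted, and all 10 passed the filter on low counts in every comparison. *Hspb1* was on the list because it was lower in HFD than in LFD mice in these samples, so its values are given as a description, without a test, and the counts of genes below are over the other 9.

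RNA-seq libraries had been made from the adrenal cortex of 12 male mice, 1 library per mouse, with 4 mice per group, aged 6 weeks when feeding began. LFD mice ate a diet with 10% of its energy as fat for 20 weeks, and the labels call this the normal diet. HFD mice ate a diet with 60% of its energy as fat for 20 weeks. Icosapent ethyl–treated mice ate the same HFD for 20 weeks, and for the last 10 weeks this diet contained icosapent ethyl, a purified ethyl ester of eicosapentaenoic acid. The labels give the genotype *Fads2*-/- for all 12 mice, whereas the methods of the study describe this feeding experiment in wild-type C57BL/6J mice, and *Fads2* was counted at 452 to 2182 CPM in each of the 12. The libraries are numbered 2, 5, 6, and 7 in LFD mice and 1 to 4 in the other groups.

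Heat shock proteins are molecular chaperones, which hold, fold, or refold other proteins. HSP70 proteins bind exposed hydrophobic stretches in a cycle driven by ATP, J-domain proteins (HSP40) bring them their substrates, and HSP110 and BAG proteins release the nucleotide. HSP90 acts later on a narrower set of clients, among them steroid hormone receptors, and small heat shock proteins hold unfolding proteins without ATP. HSP60 and its lid HSP10 fold proteins in the mitochondrial matrix, where several steps of steroid hormone synthesis take place. Heat shock factor 1 (HSF1) switches on the stress-inducible genes through heat shock elements, repeats of a unit of 3 bases, GAA, or its reverse complement TTC, with 2 bases between the units.

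Upstream sequence is shown for the genes with a pair of such units before the start, so that the letters HSF1 is known to bind can be seen beside the levels of the same genes. The windows came from RefSeq on GRCm38.p6, 250 bases before to 50 after each gene's start, and 8 of the 10 genes had one, *Hspa8* and *Hsp90aa1* being the others. The letters searched were GAANNTTC and TTCNNGAA on both strands. Each reads the same on either strand, and matches may overlap by a unit. GAANNTTC occurred in 7.86%, TTCNNGAA in 8.52%, and either in 15.1% of all 32851 promoter windows of the same length. The matches are in capitals, each sequence is written in the direction of its gene, and stretches that touch an annotated exon are kept to 30 bases.
*Hspb1*, chr5:135887772-135887859, plus strand: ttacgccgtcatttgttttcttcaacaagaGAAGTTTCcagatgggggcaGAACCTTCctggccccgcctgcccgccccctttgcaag
*Hspa1a*, chr17:34972223-34972290, minus strand: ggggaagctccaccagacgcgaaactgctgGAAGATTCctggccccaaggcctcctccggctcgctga
*Hspa1b*, chr17:34959305-34959372, minus strand: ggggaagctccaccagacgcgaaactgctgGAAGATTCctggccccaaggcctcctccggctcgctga
*Hsph1*, chr5:149636351-149636380, minus strand: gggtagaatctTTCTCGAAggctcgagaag
*Hspe1*, chr1:55088053-55088082, plus strand: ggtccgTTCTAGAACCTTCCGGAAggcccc

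*Hspb1* had 2 matches, which began 117 and 97 bases before its start. *Hspa1a* and *Hspa1b* shared 1 match at 104 bases before their starts, in stretches with the same letters, and the 250 bases before their starts differed at 3 positions. The *Hspe1* stretch holds 3 matches that overlap, beginning 89, 84, and 79 bases before its start, and it lies between the divergent genes *Hspe1* and *Hspd1*, so that it was also the upstream match of *Hspd1* on the other strand. It lies in an exon of an alternative *Hspd1* transcript. The match shown for *Hsph1* began 54 and 33 bases before its 2 RefSeq starts. Another 2 that overlap each other began 16 and 21 bases after the first of these starts. In the GENCODE annotation *Hsph1* starts further upstream, and the stretch shown overlaps an exon of the gene. *Bag3* had 1 match, 43 bases after its start, which is not shown, and no match was found in either of the 2 windows of *Dnajb1*. A match is a run of letters and was not tested for binding.

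Each library had from 34785979 to 67295963 counts on genes. Levels are CPM, the counts of a gene relative to the total of its library, scaled with edgeR's TMM factors (0.883 to 1.14). The 10 genes were well counted, from 622 counts for *Hspa1a* in its lowest library to 167940 for *Hspa8* in its highest, so that 4 mice per group, more than depth, limit the precision. Per kilobase of exon, *Hspa8* had the highest mean level over the 12 mice (604 CPM per kb), followed by *Hspd1* (513), *Hspe1* (282), *Hspb1* (248), *Hsp90aa1* (207), and *Bag3* (131). The other 4 had lower levels, at 39.1 CPM per kb for *Hsph1*, 27.5 for *Hspa1b*, 23.5 for *Dnajb1*, and 9.38 for *Hspa1a*. These values divide by all exon bases, whereas reads that map equally well to another gene were not counted. Stretches also found in another gene began at 61.7% of possible read starts in *Hspa1a*, 55.8% in *Hspa1b*, 46.4% in *Hspb1*, and 42.8% in *Hsp90aa1*. The share was 33.0% in *Hspa8*, 31.0% in *Hspd1*, 14.6% in *Hspe1*, and 0% in *Hsph1*, *Dnajb1*, and *Bag3*. The levels were not corrected for this, so the order between genes may partly reflect it. The order of *Hspa8* and *Hspd1* was not the same in every group. In HFD mice *Hspd1* stood at 603 ± 138 and *Hspa8* at 596 ± 66.2 CPM per kb (SD, n = 4), which do not differ beyond their spread, and neither do *Hspa1b* and *Dnajb1* in any of the groups. *Hspe1* and *Hspb1* also changed places, at 268 ± 37.4 and 318 ± 40.9 CPM per kb in LFD mice and at 306 ± 83.0 and 223 ± 9.30 CPM per kb in HFD mice. Their means ± SD overlapped in both groups. The change includes the fall by which *Hspb1* was picked and is no separate result.

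All 8 adrenocortical marker genes were counted in every library, at a summed level of 41566 to 94699 CPM, and so were the 9 chromaffin cell markers, at 3010 to 22022 CPM, so transcripts of the medulla were present in all samples. All 9 chromaffin markers had lower fitted levels in HFD than in LFD mice, at a median of -1.30 on the log2 scale, and 0 of them were called by edgeR, with 7 at an unadjusted p below 0.05 and 5 by DESeq2. All 9 had higher fitted levels in icosapent ethyl–treated than in HFD mice, at a median of 0.58, with none called by edgeR or DESeq2 and 0 at an unadjusted p below 0.05. Their part in the levels of the 10 genes was not tested. The macrophage markers summed to 426 to 618 CPM in LFD, 326 to 387 in HFD, and 341 to 368 in icosapent ethyl–treated mice. In these samples of whole tissue, fewer cells of a type and less RNA per cell cannot be told apart. Of the genes tested, 230 of 15909 had an adjusted p below 0.05 in HFD versus LFD mice (1.45%), 0 of 15913 in icosapent ethyl–treated versus HFD mice (0%, with 221 or 1.39% at an unadjusted p below 0.05 and 7 or 0.0268% by DESeq2), and 0 of 15935 in icosapent ethyl–treated versus LFD mice (0%, with 2225 or 14% unadjusted and 417 or 2.69% by DESeq2). In HFD versus LFD mice, 3949 genes (24.8%) had an unadjusted p below 0.05 and 1965 (12.3%) were called by DESeq2, whose shares are of the genes it gave an adjusted p.

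**Figure D1:**
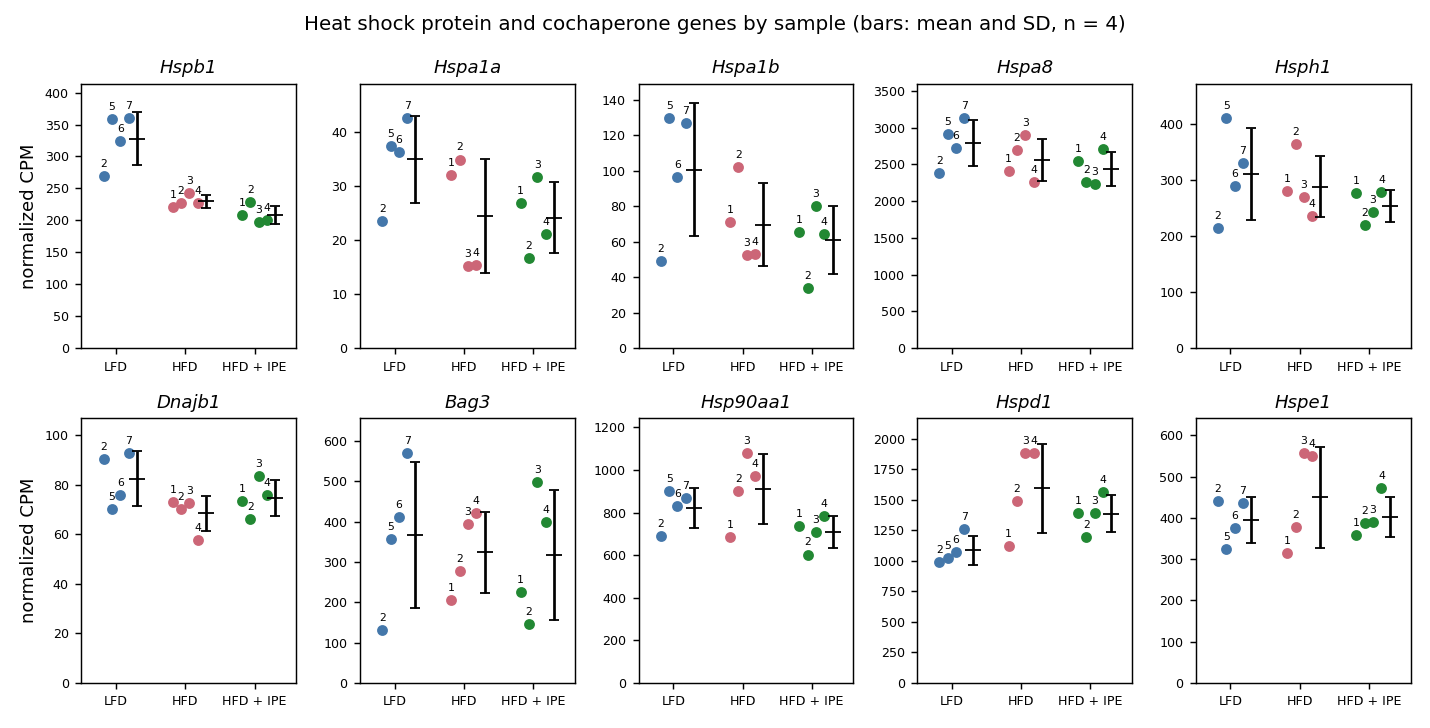
Normalized CPM of the 10 genes (vertical axes, starting at 0) in each of the 12 mice, labelled by replicate number, with the mean and SD of each group (n = 4) to the right of its points. *Hspb1*, chosen for its fall in HFD mice, lies at 270 CPM or more in LFD mice and at 243 CPM or less in all others. The groups of the other 9 genes overlap in every comparison. Of all genes tested, 13.5% were without overlap in HFD versus LFD mice. The shares were 1.14% for icosapent ethyl–treated versus HFD mice and 7.73% versus LFD mice.

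*Hspb1* (ENSMUSG00000004951, chr5:135887919-135889563, plus strand) codes for the small heat shock protein HSP25, the mouse counterpart of HSP27, which also binds actin filaments. Its level was 270, 358, 324, and 360.1 CPM in LFD mice 2, 5, 6, and 7. It was 221, 227, 243, and 228 CPM in HFD mice 1 to 4, and 208, 229, 198, and 201 CPM in icosapent ethyl–treated mice 1 to 4. Every LFD mouse lay above every mouse of both HFD groups, and those groups overlapped each other. The means were 328 ± 42.2, 229.7 ± 9.59, and 209 ± 14.3 CPM (SD, n = 4). The fitted log2 fold change was -0.52 (SE 0.096) in HFD versus LFD mice, and this is the contrast by which the gene was picked. Against the same LFD mice, it was -0.65 (SE 0.11) in icosapent ethyl–treated mice, and between the HFD groups it was -0.14 (SE 0.074). LFD replicate 2 was the lowest of its group, and leaving out any 1 mouse kept the HFD versus LFD value between -0.60 and -0.48. Of the bases that a read of 75 could start at in its transcripts, 46.4% began a stretch also found in the pseudogene *Hsp25-ps1*, which itself had 57 to 157 counts per library.

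The inducible HSP70 genes *Hspa1a* (ENSMUSG00000091971, chr17:34969190-34972156, minus strand) and *Hspa1b* (ENSMUSG00000090877, chr17:34956436-34959238, minus strand) lie side by side and code for nearly the same protein, which is made in large amounts under stress. *Hspa1b* was at 49.3, 129.6, 96.3, and 126.9 CPM in LFD mice 2, 5, 6, and 7, at 71.2, 101.9, 52.3, and 53.2 CPM in HFD mice 1 to 4, and at 65.3, 34.0, 79.9, and 64.5 CPM in icosapent ethyl–treated mice 1 to 4. *Hspa1a* was at 23.6, 37.4, 36.3, and 42.6 CPM in LFD mice, at 32.1, 34.9, 15.1, and 15.4 CPM in HFD mice, and at 26.9, 16.6, 31.6, and 21.2 CPM in icosapent ethyl–treated mice, in the same orders. For both genes, LFD replicate 2 was as low as the HFD mice, and HFD replicates 1 and 2 lay above HFD replicates 3 and 4. In HFD versus LFD mice, the log2 fold change of *Hspa1b* was -0.53 (SE 0.31, adjusted p = 0.320) and that of *Hspa1a* -0.52 (SE 0.31, adjusted p = 0.321). Against LFD mice, the values of icosapent ethyl–treated mice were -0.72 (SE 0.33, adjusted p = 0.370) and -0.54 (SE 0.23, adjusted p = 0.348), and in icosapent ethyl–treated versus HFD mice -0.19 (SE 0.29) and -0.02 (SE 0.32). None of these passed the test. The ratio of *Hspa1b* to *Hspa1a* ranged from 2.05 to 3.47 over the 12 mice. The genes share sequence over 52.7% of the read starts of *Hspa1a* and 55.8% of those of *Hspa1b*, where a read maps to both equally well and was not counted, so each level rests on the rest of the transcript.

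*Hspa8* (ENSMUSG00000015656, chr9:40800984-40810087, plus strand) codes for HSC70, the constitutive HSP70 of the cytosol. Its level was 2386, 2918, 2725, and 3129 CPM in LFD mice, 2412, 2691, 2896, and 2258 CPM in HFD mice, and 2540, 2258, 2227, and 2713 CPM in icosapent ethyl–treated mice. The highest level of a group was at most 1.31 times the lowest, against up to 2.63 times for *Hspa1b*. The log2 fold change was -0.13 (SE 0.12, adjusted p = 0.527) in HFD versus LFD mice and -0.20 (SE 0.11, adjusted p = 0.436) in icosapent ethyl–treated versus LFD mice. *Hsph1* (ENSMUSG00000029657, chr5:149614287-149636376, minus strand), the HSP110 that exchanges the nucleotide of HSP70, ranged from 214 to 409.6 CPM in LFD, 236 to 364 in HFD, and 219 to 277 in icosapent ethyl–treated mice. Its log2 fold change in HFD versus LFD mice was -0.12 (SE 0.20, adjusted p = 0.754), and it turned to 0.046 without LFD replicate 5, its highest library.

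*Dnajb1* (ENSMUSG00000005483, chr8:83608193-83612653, plus strand) codes for a J-domain protein that stimulates the ATPase of HSP70. It was at 90.6, 70.2, 75.7, and 92.9 CPM in LFD mice and at 72.9, 70.2, 72.7, and 57.8 CPM in HFD mice. The groups overlapped through LFD replicate 5, and the log2 fold change of -0.28 (SE 0.12) had an unadjusted p of 0.0489 in edgeR's test and an adjusted p of 0.199. Icosapent ethyl–treated mice had 73.3, 66.3, 83.7, and 75.8 CPM, the log2 fold change against HFD mice being 0.13 (SE 0.10). *Dnajb1* was the only one of the 9 with a positive value in that comparison.

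*Bag3* (ENSMUSG00000030847, chr7:128523616-128546981, plus strand) codes for a BAG cochaperone that links HSP70 to small heat shock proteins and to autophagy. It varied the most of the 10 genes in LFD and in icosapent ethyl–treated mice. Its level was 132, 357, 410.4, and 571 CPM in LFD mice, 206, 277, 393, and 421 CPM in HFD mice, and 225, 146, 499, and 399.8 CPM in icosapent ethyl–treated mice. The highest LFD mouse had 4.33 times the level of the lowest, and the groups overlapped throughout. The log2 fold change in HFD versus LFD mice was -0.18 (SE 0.39, adjusted p = 0.810), and it ranged from -0.46 to 0.10 with 1 mouse left out, the positive value being that without LFD replicate 7.

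*Hsp90aa1* (ENSMUSG00000021270, chr12:110690605-110702728, minus strand) codes for the inducible HSP90 of the cytosol. It was at 688, 902, 833, and 866 CPM in LFD mice, at 686, 903, 1080, and 974 CPM in HFD mice, and at 737, 603, 710.1, and 783 CPM in icosapent ethyl–treated mice. HFD replicates 2, 3, and 4 lay above every icosapent ethyl–treated mouse and, replicate 2 by about 1 CPM, above every LFD mouse, while HFD replicate 1 was at the level of the lowest LFD mouse. The log2 fold change was 0.14 (SE 0.14, adjusted p = 0.584) in HFD versus LFD mice. Between the HFD groups, it was -0.36 (SE 0.15), with an unadjusted p of 0.0346 in edgeR's test that did not hold after adjustment (adjusted p = 0.9997).

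The mitochondrial chaperonins *Hspd1* (HSP60, ENSMUSG00000025980, chr1:55077835-55088243, minus strand) and *Hspe1* (HSP10, ENSMUSG00000073676, chr1:55088132-55091307, plus strand) are transcribed away from each other and overlap at their first exons. *Hspd1* was at 990.2, 1022, 1072, and 1256 CPM in LFD mice, at 1121, 1486, 1879, and 1883 CPM in HFD mice, and at 1391, 1198, 1390.5, and 1562 CPM in icosapent ethyl–treated mice. HFD replicates 2 to 4 lay above every LFD mouse, and HFD replicate 1 lay below LFD replicate 7. The means were 1085 ± 119, 1592 ± 365, and 1385 ± 149 CPM (SD, n = 4). The log2 fold change in HFD versus LFD mice was 0.55 (SE 0.16), with an adjusted p of 0.102 in edgeR's test. It was 0.68 with an adjusted p of 0.0273 without HFD replicate 1, and the adjusted p was 0.0427 in DESeq2's Wald test. Over the 14 alternative fits, the adjusted p ranged from 0.0273 to 0.227, and it was below 0.05 in those 2. Icosapent ethyl–treated mice differed from LFD mice by 0.35 on the log2 scale (SE 0.11, adjusted p = 0.262) and from HFD mice by -0.20 (SE 0.17).

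*Hspe1* was at 441, 325, 376, and 436 CPM in LFD mice, at 315, 378, 557, and 551 CPM in HFD mice, and at 357, 388, 390.5, and 472 CPM in icosapent ethyl–treated mice. HFD replicates 3 and 4 lay above every other mouse of the study, and HFD replicate 1 lay below all of them. The log2 fold change in HFD versus LFD mice was 0.18 (SE 0.19, adjusted p = 0.602). The ratio of *Hspd1* to *Hspe1* CPM was 2.25 to 3.15 in LFD mice and 3.37 to 3.93 in HFD mice. In icosapent ethyl–treated mice it was 3.08 to 3.89, which overlaps both.

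**Figure D2:**
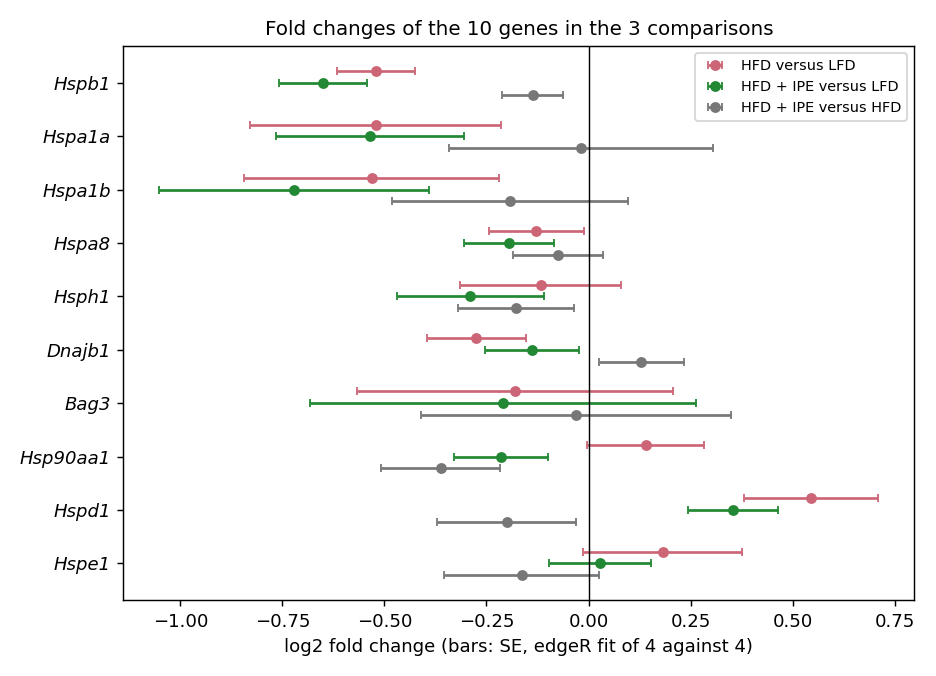
Log2 fold changes of the 10 genes (horizontal axis) with their SE in the 3 comparisons, from edgeR fits of 4 against 4 mice. *Hspb1* (-0.52 in HFD versus LFD mice) has a narrow error and was chosen by that value, *Hspa1a* and *Hspa1b* have values close to it with errors of 0.31, and *Hspd1* lies on the other side of 0 at 0.55. The comparisons share mice, so their values are not independent of each other.

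Counted over the 9 genes not picked by a measured value, 3 were higher and 6 lower in HFD than in LFD mice. None passed the threshold in edgeR's test, while 2 had an unadjusted p below 0.05 (*Hspd1* and *Dnajb1*) and 1 was called by DESeq2 (*Hspd1*). Over all genes, these rules called 1.45%, 24.8%, and 12.3%, so that 2 and 1 of 9 are near the shares of all genes. The groups overlapped in all 9, whereas they did not overlap in 13.5% of all genes tested. The median log2 fold change of the 9 was -0.13, beside -0.01 over all genes. In icosapent ethyl–treated versus HFD mice, 1 was higher and 8 lower, with a median of -0.16 beside 0.004 over all genes, none was called by edgeR or DESeq2, 1 had an unadjusted p below 0.05 (*Hsp90aa1*), and the groups overlapped in all 9, beside 1.14% of all genes without overlap. For icosapent ethyl–treated versus LFD mice, 2 were higher and 7 lower, with a median of -0.21 beside -0.004 over all genes, none was called by edgeR or DESeq2, 2 had an unadjusted p below 0.05 (*Hspd1* and *Hspa1a*), and again no gene was without overlap, beside 7.73% of all genes. The comparisons share the mice of a group, so their directions are not separate evidence.

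Much of the spread came with single mice. LFD replicate 2 was the lowest of its group in 8 of the 10 genes, the exceptions being *Dnajb1* and *Hspe1*. HFD replicate 1 was the lowest of its group in 5 genes, and icosapent ethyl–treated replicate 2 in 7. The same 3 mice had the lowest summed adrenocortical markers of their groups, at 41566, 55325, and 58010 CPM. They also had the highest TMM factors of their groups, at 1.14, 1.07, and 1.09, and a higher factor lowers the CPM of every gene in a library. The parts of cell composition and of scaling in these levels were not tested. Without LFD replicate 2, 5 of the 9 genes lay below every LFD mouse in all icosapent ethyl–treated mice (*Hspa1a*, *Hspa1b*, *Hspa8*, *Hsp90aa1*, and *Hsph1*), with log2 fold changes from -0.95 for *Hspa1b* to -0.26 for *Hspa8*. In this setting of 3 against 4 mice, 12.3% of all genes were without overlap, and LFD replicate 2 was singled out after its values were seen. None of the 5 then passed edgeR's test, the adjusted p ranging from 0.253 to 0.355. Without HFD replicate 1, *Hspd1* and *Hsp90aa1* were above every LFD mouse in the other HFD mice, 2 of 9 beside 23.8% of all genes without overlap.

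Within groups, some of the genes moved together from mouse to mouse, and how often pairs of all genes do so was not counted. Pearson's r of the deviations of log2 CPM from the group means over the 12 mice was above 0.5 in 14 of the 45 pairs and below -0.4 in 3, which is a description of libraries that share their scaling. *Hspa1b* went with *Hspa1a* (0.86) and with *Hsph1* (0.86). *Hspd1* went with *Hsp90aa1* (0.87) and *Hspe1* (0.83), and *Hsp90aa1* with *Bag3* (0.74). *Hspe1* ran against *Hspa1a* (-0.72), and in HFD mice replicates 1 and 2 had the higher *Hspa1a* and the lower *Hspe1* levels. The other pairs of an inducible HSP70 gene with a mitochondrial chaperonin were less opposed, at -0.43 for *Hspa1b* with *Hspe1*, -0.36 for *Hspa1a* with *Hspd1*, and 0.08 for *Hspa1b* with *Hspd1*. *Hspb1* was closest to *Hspa8* (0.56) and *Hsph1* (0.52).

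**Figure D3:**
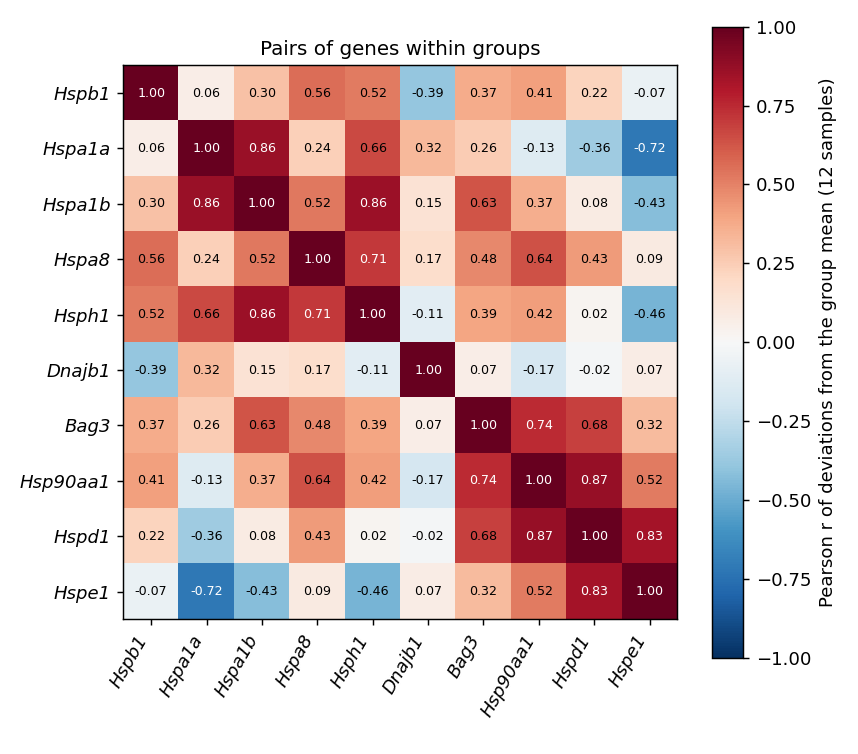
Pearson's r of the deviations of log2 CPM from the group mean over the 12 mice for each of the 45 pairs of genes, from -1 (blue) to 1 (red). Among *Hspa1a*, *Hspa1b*, and *Hsph1*, r was from 0.66 to 0.86, and among *Hspd1*, *Hspe1*, and *Hsp90aa1* from 0.52 to 0.87. These sets are not separate blocks, since pairs outside them reach similar values. Examples are *Hsp90aa1* with *Bag3* (0.74), *Hspa8* with *Hsph1* (0.71), and *Hspa8* with *Hsp90aa1* (0.64).

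The deviations were also set beside the summed CPM of 9 cell type marker lists and of 22 early response genes, 100 pairs of a gene and a list in all, again as a description over 12 mice. The macrophage markers came closest to *Hspb1* (r of deviations 0.87). The order was the same in 4 of 4 LFD, 2 of 4 HFD, and 2 of 4 icosapent ethyl–treated mice. *Hspa8* (0.74) and *Hspa1a* (0.08) also had all 4 LFD mice in the order of the macrophage sum. Of 8 macrophage markers, 6 had negative values in HFD versus LFD mice. In edgeR's test, 3 of the 8 were called (*Cd68*, *C1qa*, and *C1qc*), beside 1.45% of all genes. No gene at all was called in 6 of the 8 fits with 1 mouse left out. *C1qc* fell from 98.5 ± 16.1 to 56.7 ± 4.75 CPM (SD, n = 4) and *C1qa* from 143.9 ± 19.7 to 86.5 ± 9.47 CPM. The part of macrophage RNA in the *Hspb1* level was not tested. The adrenocortical markers came closest to *Hspd1* (0.95), *Hsp90aa1* (0.88), and *Bag3* (0.83). All 8 of them had positive values in HFD versus LFD mice, at a median of 0.42 on the log2 scale. None was called by edgeR, 5 had an unadjusted p below 0.05, and 2 were called by DESeq2, and the part of these cells in the *Hspd1* level was not tested. The chromaffin markers ran against *Hspd1* (-0.53). The early response genes came closest to *Hspa1a* (0.90) and *Hspa1b* (0.75). With the differences between groups included, r with *Hspa1a* was 0.55 over the 12 mice. By that measure, 1034 of 10880 other genes with a mean of at least 5 CPM (9.50%) followed the early response sum at least as closely. The share was 32 of 10892 (0.294%) for *Hspd1* with the adrenocortical sum and 5 of 10893 (0.0459%) for *Hspb1* with the macrophage sum. The last of these includes the fall by which *Hspb1* was picked. No such share was counted for the deviations.

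**Figure D4:**
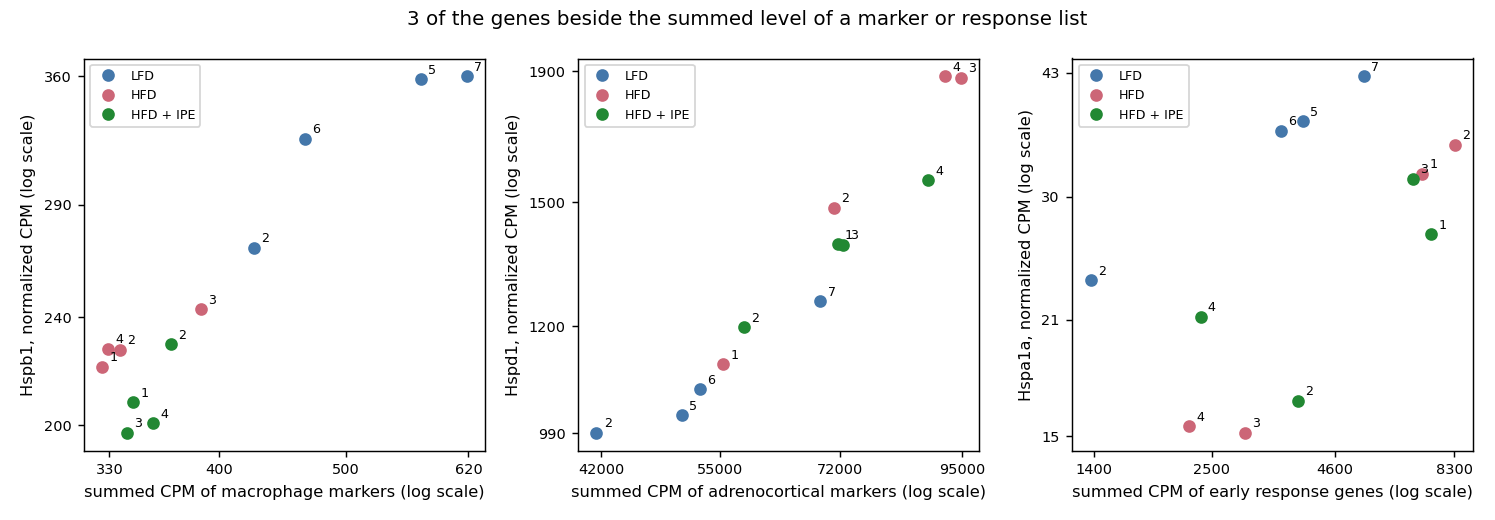
Normalized CPM of *Hspb1*, *Hspd1*, and *Hspa1a* (vertical axes) against the summed CPM of macrophage markers, adrenocortical markers, and early response genes (horizontal axes) in the 12 mice, all on log scales, with replicate numbers. The LFD mice have the highest values of both *Hspb1* and the macrophage sum, *Hspd1* follows the adrenocortical sum across the groups, and for *Hspa1a* LFD mice lie higher than HFD mice at a similar early response sum.

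Early response genes are switched on within minutes of a stimulus, and several encode transcription factors. *Fos* was at 7.16 to 11.4 CPM in LFD mice, at 426, 319, 12.3, and 15.0 CPM in HFD mice 1 to 4, and at 316, 331, 28.1, and 10.1 CPM in icosapent ethyl–treated mice 1 to 4. *Junb* was at 38.3 to 67.3 CPM in LFD mice and at 1475, 1373, 69.4, and 46.6 CPM in HFD mice 1 to 4, and *Egr1* at 23.5 to 132 CPM in LFD mice and at 1004, 656, 185, and 62.5 CPM in HFD mice. HFD replicates 1 and 2, which had the highest *Hspa1a* and *Hspa1b* levels of their group, were also highest in these 3 genes. In these 3 genes, icosapent ethyl–treated mice did not show this order. Their replicate 2 had the highest *Fos* level and the lowest *Hspa1a* and *Hspa1b* levels, replicate 3 had the highest *Hspa1a* level with *Fos* at 28.1 CPM, and *Junb* was at 1364, 762, 314, and 44.0 CPM and *Egr1* at 681, 464, 279, and 34.0 CPM in replicates 1 to 4. The sum of all 22 genes was 7403, 3838, 6776, and 2369 CPM in icosapent ethyl–treated mice 1 to 4. Replicates 1 and 3, highest in this sum, also had the highest *Hspa1a* and *Hspa1b* levels of their group. LFD mice with low *Fos* had *Hspa1a* levels above those of icosapent ethyl–treated mice, apart from LFD replicate 2. The sums of LFD mice 2, 5, 6, and 7 were 1374, 3926, 3521, and 5304 CPM, in the order of their *Hspa1a* levels. *Jun* had a difference of 0.30 on the log2 scale (SE 0.10, adjusted p = 0.118) and *Atf3*, a stress-induced repressor, one of -0.30 (SE 0.82, adjusted p = 0.855) in HFD versus LFD mice. Of the 22 genes, 13 were higher and 9 lower, with a median of 0.36, and none passed the test in edgeR's fit, 9 of 22 having an unadjusted p below 0.05 and 5 of 22 being called by DESeq2, beside 24.8% and 12.3% of all genes. The part of this response in the HSP70 levels was not tested.

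Among the 10891 genes with a mean of at least 5 CPM, the log2 CPM of *Cd300c2* over the 12 mice was most like that of *Hspb1* (Pearson's r 0.96), followed by *C1qc* (0.95), *C1qa* (0.94), *Ly6e* (0.93), and *Fuca2* (0.93). *C1qa* and *C1qc* code for chains of complement C1q, *Ly6e* for a membrane protein induced by interferon, and *Fuca2* for a fucosidase. These values include the differences between groups. Within groups, they were 0.90, 0.85, 0.78, 0.85, and 0.61. Because *Hspb1* was picked by its fall and these genes by their likeness to it, their own differences between HFD and LFD mice (-0.80 for *C1qc* to -0.32 for *Ly6e* on the log2 scale) were fixed by the choice and are no separate result. *Lmf2* (0.90), *Prkar2a* (0.89), *Nup210* (0.89), *S1pr1* (0.88), and *H2-Q6* (0.88) were most like *Hspa1b*.

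Of 6 regulators of the heat shock response, 4 could be tested, and none passed the threshold in edgeR's test in HFD versus LFD mice (1 at an unadjusted p below 0.05 and 1 by DESeq2). *Hsf1*, the main stress-activated factor, was at 29.2 ± 2.16, 31.0 ± 3.08, and 32.2 ± 2.13 CPM in LFD, HFD, and icosapent ethyl–treated mice (SD, n = 4), which is 0.07 higher on the log2 scale in HFD than in LFD mice (SE 0.10, adjusted p = 0.700). *Hsbp1*, which codes for an inhibitor of HSF1, had one of -0.05 (SE 0.089, adjusted p = 0.752), and *Hsf2* one of 0.19 (SE 0.21, adjusted p = 0.626). *Hsf4*, known for its role in the lens, was low, at 3.47 ± 1.68 and 1.28 ± 0.703 CPM, with a difference of -1.44 on the log2 scale (SE 0.48, adjusted p = 0.122). *Hsf3* and *Hsf5* had too few counts to be tested. These are levels of RNA, and HSF1 is activated as a protein.

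Of 117 genes in 8 lists of chaperones and cochaperones, of which the 10 genes are part, 113 were tested, and 103 of these are not of the 10. Of the 103, 57 were higher and 46 lower in HFD than in LFD mice, at a median of 0.01 on the log2 scale, and 2 were called, beside 1.45% of all genes. Without overlap were 6 in the higher and 4 in the lower direction, beside 13.5% of all genes. *Hspa12a*, an HSP70-like protein of uncertain chaperone function, rose from 44.0 ± 4.27 to 82.6 ± 15.9 CPM (log2 fold change 0.90, SE 0.14, adjusted p = 0.0376). *Sdf2l1*, a cochaperone of BiP in the endoplasmic reticulum, fell from 46.1 ± 7.62 to 27.8 ± 2.25 CPM (log2 fold change -0.74, SE 0.14, adjusted p = 0.0450). With 1 mouse left out, each of these genes kept its direction but was called in 1 of 8 fits, that without HFD replicate 1, and the adjusted p reached 0.132 for *Hspa12a* and 0.137 for *Sdf2l1*. Icosapent ethyl–treated mice had 68.6 ± 14.1 CPM of *Hspa12a* and 29.5 ± 3.19 CPM of *Sdf2l1*. Neither those genes nor any other of the 103 was called in icosapent ethyl–treated versus HFD mice (32 higher, 71 lower, 1 at an unadjusted p below 0.05, and 0 by DESeq2) or versus LFD mice (44 higher, 59 lower, 15 unadjusted, and 2 by DESeq2) in edgeR's test.

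The lists differed in direction, although no list held more than 1 called gene. Except for the small heat shock proteins, the counts of a list include those of the 10 genes that belong to it. Of the 5 small heat shock proteins tested besides *Hspb1*, 4 were lower in HFD than in LFD mice, with a median of -0.29. *Cryab*, which codes for αB-crystallin, was at 23.3 ± 5.89 and 14.5 ± 2.15 CPM without overlap (log2 fold change -0.70, SE 0.20, adjusted p = 0.0883), whereas *Hspb8*, the partner of BAG3, was at 115 ± 24.4 and 168 ± 77.9 CPM (0.54, SE 0.33, adjusted p = 0.341). In the HSP70 and HSP110 list, 3 of 12 were higher, and *Hspa2* had a difference of -0.89 on the log2 scale (SE 0.25, adjusted p = 0.0883). J-domain proteins were divided, 10 of 19 being higher, with *Dnajc13* at 0.32 (SE 0.14, adjusted p = 0.207). Among the exchange and BAG cochaperones, 6 of 10 were higher, with *Bag6*, which guards hydrophobic proteins in the cytosol, at 0.24 (SE 0.12, adjusted p = 0.245) without overlap, and *Bag4* at 0.19 (SE 0.093, adjusted p = 0.246).

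Of 18 genes for HSP90 proteins and their cochaperones, 7 were higher in HFD than in LFD mice, and *Sgta* (0.39, SE 0.28, adjusted p = 0.411) and *Cdc37l1* (0.30, SE 0.13, adjusted p = 0.207) had the widest differences at 5 CPM or more. Between the HFD groups, 17 of the 18 were lower in icosapent ethyl–treated mice, with a median of -0.07, and none was called by edgeR or DESeq2. In edgeR's test, 2 had an unadjusted p below 0.05, beside 1.39% of all genes, and 1 of these was *Hsp90aa1*, described above. Of 15 genes for the cytosolic chaperonin and prefoldin, 10 were higher in HFD than in LFD mice, but the widest differences were the negative ones of the prefoldin subunits *Pfdn5* (-0.48, SE 0.11, adjusted p = 0.0615, without overlap) and *Vbp1* (-0.24, SE 0.087, adjusted p = 0.145).

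The mitochondrial chaperones and proteases leaned upward. Of 17, 14 were higher in HFD than in LFD mice, with a median of 0.23, and 2 were without overlap, beside 13.5% of all genes. Without *Hspd1* and *Hspe1*, 12 of 15 were higher, also with a median of 0.23. None was called by edgeR, whereas 9 of 17 had an unadjusted p below 0.05 and 4 of 17 were called by DESeq2, beside 24.8% and 12.3% of all genes. *Hspd1* was in both of these counts. The matrix protease *Lonp1* was at 589, 806, 806, and 961 CPM in LFD mice and at 943, 1111, 1285, and 1284 CPM in HFD mice, with a difference of 0.54 on the log2 scale (SE 0.15, adjusted p = 0.0883), close to that of *Hspd1*. Against the same LFD mice, 14 of 17 were higher in icosapent ethyl–treated mice, with a median of 0.17. Of 16 chaperones of the endoplasmic reticulum, 9 were higher in HFD than in LFD mice and 7 lower, and *Dnajb9*, a J-domain partner of BiP, had a difference of -0.26 on the log2 scale (SE 0.17, adjusted p = 0.375).

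**Figure D5:**
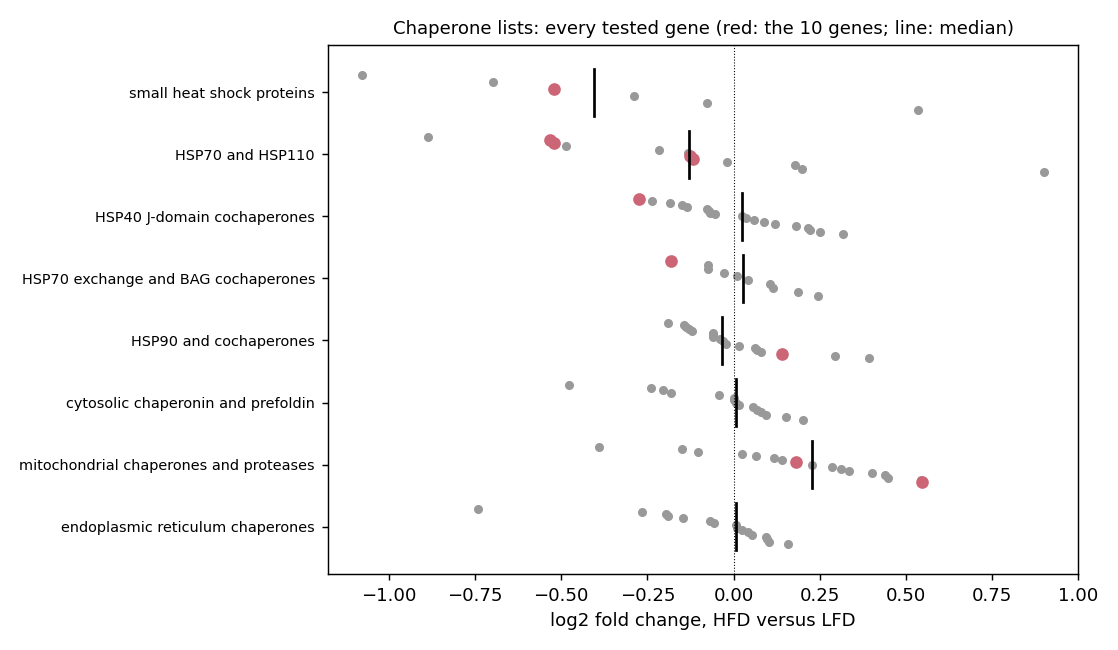
Log2 fold change in HFD versus LFD mice (horizontal axis) of every tested gene in 8 chaperone lists, with the 10 genes described here in red and the median of each list as a line. Of the small heat shock proteins besides *Hspb1*, 4 of 5 lie below 0, and 14 of 17 mitochondrial genes, *Hspd1* and *Hspe1* among them, lie above 0. The other medians are at 0.03 or less.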

How the data were processed

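The authors made strand-specific libraries, trimmed reads with cutadapt, aligned them to GRCm38 with STAR, and counted them on GENCODE M12 genes with HTSeq 0.6.1p1, using strand and dropping alignments of low quality. They deposited raw counts per gene, 1 library per mouse. Symbols (49326 of 49585 genes) and coordinates came from GENCODE M21, sequences from RefSeq. The genes, lists, naming rule, and tests were chosen with earlier results of these data known. Named besides the 10 genes were called list genes, the 2 widest HFD versus LFD differences per list at a mean of 5 CPM or more, the heat shock factors, early response factors, and the 5 genes most like *Hspb1* and *Hspa1b*. *Cd68* was named after its values were seen.

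Each comparison of 4 with 4 mice was tested in edgeR 4.0.16 (R 4.3.3; TMM, filterByExpr at a minimum count of 10, robust quasi-likelihood fit, no covariates), with Benjamini-Hochberg adjustment over all genes tested and a threshold of 0.05. No library was a copy of another (over 66 pairs, chi-square divided by its degrees of freedom was 26.1 or more). Deviations of same-numbered HFD and icosapent ethyl–treated mice correlated at 0.337, 0.162, 0.403, and 0.792, so the numbers were also used as a block. These numbers are on the labels, which do not say what they share, and mice numbered differently correlated by up to 0.703. No block could be used with LFD mice, whose only number in common is 2. In simulated HFD versus LFD counts of 15909 genes, 103 of 200 genes changed by a factor of 2 were recovered, with 4 false calls. The alternatives were DESeq2 1.42.0, its size factors, library totals, other filters, all 12 samples, the block, and leaving out each mouse.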

Additional observations from a re-analysis of the deposited data

How the results depend on the processing

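In HFD versus LFD mice, the number of the 9 genes called was 0 in edgeR's test, 1 with DESeq2, and 0 to 1 with 1 mouse left out (*Hspd1* without HFD replicate 1). Genes called overall numbered 1965 with DESeq2, 84 with library totals, 556 with all 12 samples in 1 fit, and 0 to 918 with 1 mouse left out (918 when HFD replicate 1 was left out, 78 when LFD replicate 2 was, and 0 in the other 6 fits). Genes of the 9 without overlap numbered 2 with library totals and 0 to 2 with 1 mouse left out. Between the HFD groups, 7 genes were called by DESeq2, and 0 to 1 of the 9 were without overlap with 1 mouse left out. In icosapent ethyl–treated versus LFD mice, 417 genes were called by DESeq2, 2 with all 12 samples, and 0 to 1 with 1 mouse left out, and 3 of the 9 were without overlap with library totals and 0 to 5 with 1 mouse left out (5 without LFD replicate 2). Library totals moved the median of all genes by -0.10 on the log2 scale in HFD versus LFD mice.

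Some small values changed sign, and the cause was not tested. With 1 mouse left out, in HFD versus LFD mice *Hsph1* ranged from -0.25 to 0.046 and *Bag3* from -0.46 to 0.10. Between the HFD groups, the ranges were -0.19 to 0.21 for *Hspa1a*, -0.35 to 0.049 for *Hspa1b*, and -0.34 to 0.21 for *Bag3*, which was also 0.028 with library totals. For icosapent ethyl–treated versus LFD mice, *Bag3* ranged from -0.51 to 0.090 and *Hspe1* from -0.057 to 0.087, and *Hspe1* was -0.027 with library totals. With the replicate number as a block in icosapent ethyl–treated versus HFD mice, 0 of the 9 genes and 0 genes overall were called, as without it, and *Hspa1a* turned to 0.051, while the block changed no call.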
